A study of Mus musculus with 24 samples.

Results

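The first days of air breathing in the mouse lung were compared through 278 microRNAs (miRNAs) on 5 arrays of day 4 and 5 arrays of day 1 after birth. These 278 were all the mouse names that the scanner software called detected on every array of at least 1 of both ages, out of 611 mouse names on the array. Of them, 254 were detected on all 10 arrays, 19 on all day 4 arrays but not on all day 1 arrays, and 5 on all day 1 arrays but not on all day 4 arrays. None was undetected throughout 1 age. The other 333 mouse names did not meet the rule and are not described.

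The series holds 24 one-colour Agilent arrays of total RNA from whole lungs of healthy C57BL/6 mice at 5 ages, and 10 of the arrays are used here for the comparison. The labels call each array of an age a separate biological replicate and name no treatment, so the groups are untreated day 1 and day 4 lungs of 1 inbred strain, with n = 5 each. Sex, litter and the number of lungs per RNA sample are not stated in the labels. The title of the series speaks of fetal lungs, whereas all labels give ages after birth, which were used.

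A miRNA is a short RNA cut from a hairpin precursor. It guides a silencing complex to messages that pair with its seed, the bases 2 to 8 from its 5′ end, and lowers their output, so that miRNAs with 1 seed are grouped as a family. Mice are born before alveoli form. In the first days after birth the airspaces are simple sacs, the lung is newly exposed to air, and the dividing walls that later make alveoli begin to rise from a tissue of growing epithelium, capillaries and fibroblasts.

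Day 4 differed little from day 1. Only 5 of the 278 members passed the test across all 322 tested names (limma over the 24 arrays, two-sided, Benjamini-Hochberg adjusted p under 0.05), 2 of them higher and 3 lower at day 4. That is 1.55% of the names tested, with 0.621% higher and 0.932% lower, and none of the 44 tested names outside the members passed. The risers were miR-195 and miR-497, which share a seed and a locus. The fallers were miR-675-3p, cut from the imprinted growth-restraining RNA H19, miR-210, the miRNA best known for its induction by low oxygen, and miR-301b of the miR-130 family. Each changed by less than 2-fold.

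The mature sequences of these miRNAs, except miR-301b, and of some seed relatives are shown because the risers and their relatives differ only outside the seed. They are from RefSeq (GRCm38.p6), written 5′ to 3′ with the seed in capitals, and 20 of 21 arms looked up were found. The mature arm of miR-301b was not found, so no sequence is given for it. The array names carry no arm for most of these miRNAs, so the arm commonly meant by the name was taken.

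miR-195: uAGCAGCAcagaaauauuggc

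miR-497: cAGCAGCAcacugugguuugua

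miR-16: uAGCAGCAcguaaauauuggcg

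miR-15a: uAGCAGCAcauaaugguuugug

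miR-15b: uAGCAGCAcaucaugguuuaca

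miR-675-3p: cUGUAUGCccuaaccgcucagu

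miR-210: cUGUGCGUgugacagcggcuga

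miR-130a: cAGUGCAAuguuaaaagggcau

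miR-130b: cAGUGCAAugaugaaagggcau

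miR-301a: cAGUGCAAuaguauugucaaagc

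The first 5 sequences have the seed AGCAGCA, and the last 3 have AGUGCAA. Counted from the 5′ end, miR-195 is identical to miR-16 at 19 of 21 positions, to miR-15a at 15, to miR-15b at 14 and to miR-497 at 12. Probes may share signal between miR-195 and miR-16 for that reason. The miR-195 sequence lies at chr11:70235062-70235082 on the plus strand and that of miR-497 at chr11:70234730-70234751 on the same strand, and their hairpins are 241 bases apart. The miR-675-3p sequence lies at chr7:142577078-142577099 on the minus strand, inside the long non-coding RNA H19, and that of miR-210 at chr7:141221407-141221428 on the minus strand, in no other gene of the table. The hairpin Mir301b lies at chr16:17124400-17124496 on the minus strand, 257 bases from Mir130b, and both lie inside the gene 2610318N02Rik.

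Values of single arrays are scaled signals in intensity units, in which each array was brought to the same 75th percentile; differences are on the log2 scale, day 4 minus day 1, with the standard error (SE) of the model. The signal of miR-195, which restrains cell-cycle genes with the rest of its family, was 3930, 2910, 3520, 2240 and 2820 on day 1 replicates 1 to 5 and 4660, 5420, 5760, 4510 and 4470 on day 4 replicates 1 to 5. Every day 4 array lay above every day 1 array. It rose by 0.71 ± 0.13 (95% confidence interval 0.44 to 0.98), or 1.63-fold (limma, adjusted p = 0.00196). Its mean log2 level went from 11.56 ± 0.31 to 12.27 ± 0.17 (both SD, n = 5), and stood at 12.40, 12.81 and 13.01 at days 7, 14 and 42.

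Its neighbour miR-497 gave 3730, 3000, 3580, 2280 and 2450 at day 1 and 4300, 5210, 5130, 4470 and 4560 at day 4. These arrays did not overlap either. The rise was 0.68 ± 0.12 (95% confidence interval 0.42 to 0.93), or 1.6-fold (limma, adjusted p = 0.00196), with later means of 12.40, 12.61 and 12.52 at days 7, 14 and 42. In both miRNAs the lowest day 1 array was replicate 4, which is also the dimmest of the 10 arrays. Without any single array of the 10, both stayed called, with 0.60 to 0.80 for miR-195 and 0.58 to 0.76 for miR-497.

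The other 3 members of the miR-15, miR-16 and miR-195 list did not pass. The family's namesake miR-16 read 11700, 9440, 10500, 8350 and 11000 at day 1 and 12800, 12700, 14500, 10800 and 11300 at day 4, a difference of 0.29 ± 0.12 (adjusted p = 0.273). Its ages overlapped. The difference was 0.36 ± 0.25 (adjusted p = 0.503) for miR-15a and 0.03 ± 0.17 (adjusted p = 0.918) for miR-15b, the products of the hairpins next to the miR-16 copies. Over the 5 listed members, the called ones among them, all differences were above 0, with a median of 0.36 beside 0.03 over all tested names. The list leaves out miR-322, which has the same seed and stood at -0.17 ± 0.18 (limma, adjusted p = 0.681).

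**Figure D1:**
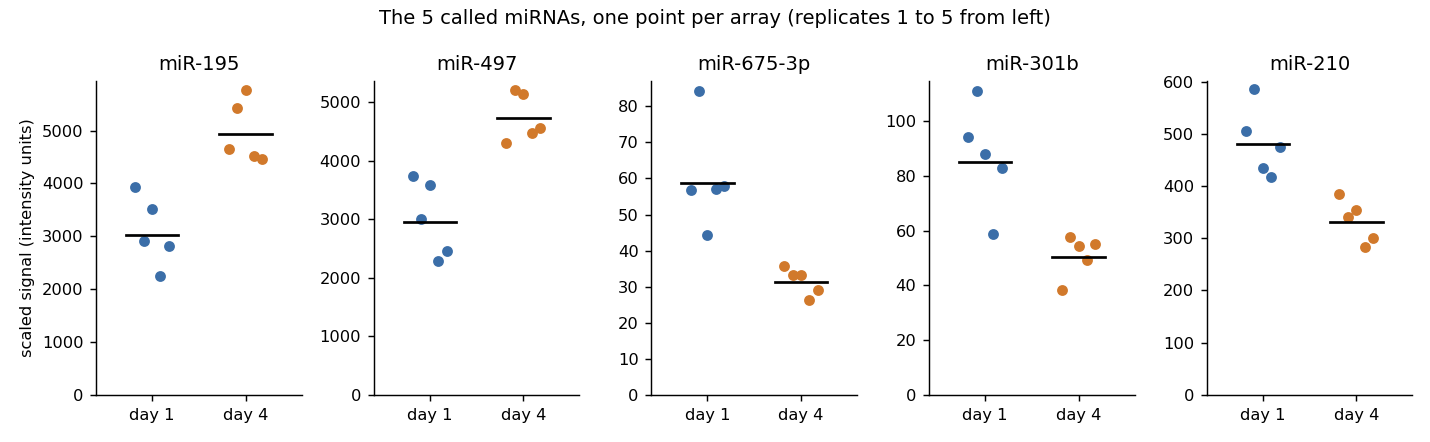
Scaled signal (intensity units, axes from 0) of the 5 called miRNAs, 1 point per array for 5 day 1 arrays (blue) and 5 day 4 arrays (orange), with bars at the mean of the log2 values. The day 4 arrays of miR-195 and miR-497 all lie above the day 1 arrays, and those of miR-675-3p, miR-301b and miR-210 all lie below them.

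The strongest fall was that of miR-675-3p. H19, its host, is expressed from the maternal chromosome, abundant in fetal tissue and silenced in most organs after birth. The signal was 56.8, 84.1, 44.2, 57.0 and 58.0 at day 1 and 35.8, 33.1, 33.1, 26.3 and 29.1 at day 4, dim values that were detected on 5 of 5 and 4 of 5 arrays. The lowest day 1 array still lay above the highest day 4 array. It was a member only through day 1, where it stood higher, so this gap and the call are not independent of the membership rule. The fall was -0.91 ± 0.14 (95% confidence interval -1.20 to -0.61), or 1.88-fold (limma, adjusted p = 0.00068).

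The levels of miR-675-3p continued lower, from a log2 mean of 5.88 at day 1 through 4.97, 4.20 and 2.92 to 2.86 at days 4, 7, 14 and 42, the last being the floor set for undetected signal. All day 42 arrays stood at the floor (SD 0.0), and this spread enters the estimate shared by the ages. With a floor 4 times lower the difference kept its size of -0.91 and lost the call (adjusted p = 0.286), and from the deposited table it was -0.66 (adjusted p = 0.186). It stayed called without any single array of the 10 (-1.01 to -0.78).

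Low oxygen induces miR-210, which restrains mitochondrial iron-sulphur cluster assembly. Its signal was 506, 586, 434, 417 and 475 at day 1 and 385, 340, 354, 283 and 300 at day 4. The ages did not overlap. The fall was -0.54 ± 0.13 (95% confidence interval -0.80 to -0.28), or 1.45-fold (limma, adjusted p = 0.024). Its log2 means over the 5 ages, from day 1 to day 42, were 8.91, 8.37, 7.98, 7.56 and 7.52. Leaving out 1 array at a time kept the call in 4 of 10 cases, with adjusted p between 0.0101 and 0.108; the 6 arrays whose absence ended it were replicates 1, 2 and 5 of day 1 and replicates 2, 4 and 5 of day 4.

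The signal of miR-301b was 94.2, 111, 88.1, 58.6 and 83.0 at day 1 and 38.3, 57.8, 54.5, 49.3 and 55.2 at day 4. Only a narrow gap, between 58.6 and 57.8, parted the ages. The fall was -0.75 ± 0.19 (95% confidence interval -1.15 to -0.36), or 1.69-fold (limma, adjusted p = 0.0436). Its later log2 means were 5.52, 3.97 and 2.86, the last at the floor, for days 7, 14 and 42. The call was the weakest of the 5: it held in 1 of 10 cases when 1 array was left out, without day 1 replicate 4, and the adjusted p then ran from 0.00773 to 0.118. A floor 4 times lower also ended it (adjusted p = 0.314).

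Within the miR-130 and miR-301 family, whose members repress the fat-cell regulator PPARγ among other targets, the members of the locus on chromosome 16 stood apart in sign. The partner miR-130b had 708, 565, 524, 597 and 676 at day 1 and 519, 441, 532, 345 and 371 at day 4, a difference of -0.49 ± 0.16 (adjusted p = 0.159). Its arrays overlapped. The values were 0.16 ± 0.13 (adjusted p = 0.585) for miR-130a and 0.15 ± 0.29 (adjusted p = 0.821) for miR-301a, which come from other chromosomes. The differences between members were not tested.

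The estimated difference was small for most members, though an interval that holds 0 does not show an unchanged level. The median difference of the 278 was 0.04, beside 0.03 over all tested names, and 250 members differed by less than 1.5-fold. In all, 149 members stood above 0, 122 below 0 and 7 at 0 after rounding. The ages did not overlap for 3 members higher at day 4 (0.932% of all tested) and 11 lower (3.42%). Besides the called ones these were miR-326 among the higher and miR-409-5p, miR-431, miR-154, miR-411*, miR-434-5p, miR-410, miR-379 and miR-467f among the lower. At an unadjusted p under 0.05 stood 19 higher members, against 6.52% of all tested, and 28 lower ones, against 9.63%. Among the 254 members detected on all 10 arrays these were 15 and 25, and the ages did not overlap for 3 higher and 10 lower. The rest were members only through the age at which they stood higher, and so are no support for a direction. Outside the lists, the members next by p were miR-31 with 0.35 ± 0.13, miR-326 with 0.35 ± 0.13 and miR-1187 with -0.53 ± 0.20 (adjusted p = 0.215, 0.232 and 0.245).

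**Figure D2:**
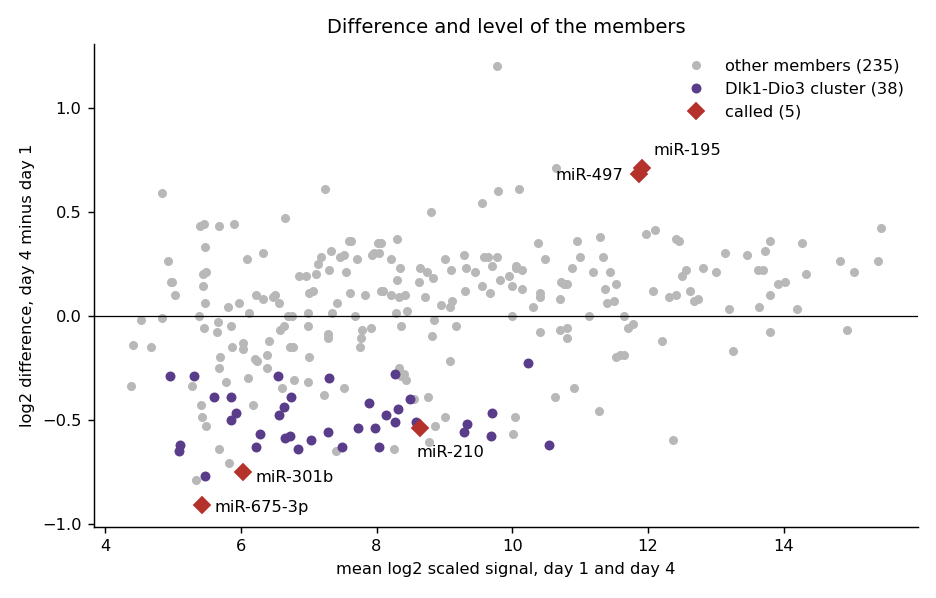
Log2 difference, day 4 minus day 1, against the mean log2 scaled signal of both ages for the 278 members: 5 called (red diamonds), 38 of the Dlk1-Dio3 cluster (purple) and 235 others (grey). The purple points all lie below 0, between -0.77 and -0.23, whereas the grey points scatter around 0.

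The Dlk1-Dio3 cluster is a maternally expressed, imprinted miRNA cluster of the placental mammals that is most active before and around birth. On the array 73 names belong to it, 38 of them members and 25 detected on none of the 10 arrays. None of the 38 passed the test, yet all 38 stood below 0, with a median of -0.51 and a range of -0.77 to -0.23. Of these, miR-134 was a member only through day 1, where it stood higher. In contrast miR-380-3p, miR-376b* and miR-539 were members only through day 4, where they stood lower. An unadjusted p under 0.05 was reached by 19 of the 38, and 7 had day 4 arrays wholly below the day 1 arrays, beside 9.63% and 3.42% of all names tested. Co-expressed neighbours are not independent, so these counts are a description. The mean log2 level of the 38 was 7.31 to 7.72 on the day 1 arrays and 6.97 to 7.17 on the day 4 arrays, with no overlap.

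RefSeq placed 36 of these members in 28 hairpins between chr12:109585789-109743795, all on the plus strand, a stretch of 158 kb. At its start lie 9 members within the gene Rtl1, to which they run antisense, with a median difference of -0.56. Among these, miR-431 read 234, 226, 223, 219 and 222 at day 1 and 165, 151, 163, 128 and 124 at day 4. Its day 1 arrays were tight (SD 0.04 on the log2 scale) and lay wholly above day 4 (-0.63 ± 0.21, adjusted p = 0.159). Another, miR-127, antisense to Rtl1 and known to repress it, had 1780, 1480, 1580, 2330 and 2240 at day 1 and 1720, 1110, 1490, 965 and 934 at day 4. Its ages overlapped (-0.62 ± 0.26, adjusted p = 0.272). The value for miR-433 was -0.77 ± 0.25 (adjusted p = 0.159), the lowest of the cluster.

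At the other end, 8 members lie within the non-coding RNA Mirg, with a median of -0.58. Of these, miR-409-5p read 156, 132, 120, 161 and 154 at day 1 and 120, 87.2, 109, 76.3 and 75.2 at day 4. The highest day 4 array reached the lowest day 1 array to within rounding (-0.64 ± 0.18, adjusted p = 0.0904). The signals of miR-410 were 367, 352, 344, 275 and 298 at day 1 and 223, 208, 240, 200 and 185 at day 4, without overlap (-0.63 ± 0.27, adjusted p = 0.273). Between both ends lie 19 members in no listed host gene, with a median of -0.47. They hold miR-543 (-0.62 ± 0.17, adjusted p = 0.0725), the member closest to the threshold, and miR-494 (-0.23 ± 0.26, adjusted p = 0.705), the one nearest to 0. All day 42 arrays of miR-543, miR-433 and miR-409-5p, among others of the cluster, stood at the floor (SD 0.0). This spread enters the estimate shared by the ages, and so the errors and p-values given for these names.

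The median of the cluster was below 0 on each slide, at -0.36, -0.64 and -0.55 on slides 1, 2 and 3. The only day 4 array on slide 1 was replicate 1, and the only day 1 array on slide 2 was replicate 2, so both medians rest on a lone array in 1 age. With array brightness as a covariate the median was -0.47, with 37 of 38 members below 0. Without scaling, where the median of all tested names moved to 0.37, the median of the cluster was -0.14 and 32 of 38 members stood below 0; relative to that shift it was -0.52. After a normexp background correction, where the median of all tested names was -0.62, the cluster stood at -0.81, or -0.20 relative to the rest. Without day 4 replicate 1, the dimmest day 4 array, miR-543, miR-409-5p, miR-433 and miR-369-5p passed (adjusted p = 0.0229, 0.0351, 0.0351 and 0.0495).

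Other imprinted hosts gave 4 members, all below 0, with a median of -0.52. For miR-675-3p and miR-483, detected on 5 of 5 day 1 and 4 of 5 day 4 arrays, membership came through day 1 alone, the age at which they stood higher, so this count and median are no support for a direction. Besides miR-675-3p these were miR-483, from an intron of the growth factor gene Igf2, with -0.64 ± 0.25 (adjusted p = 0.245), and both arms of the hairpin in Mest, miR-335-3p with -0.40 ± 0.27 (adjusted p = 0.480) and miR-335-5p with -0.06 ± 0.18 (adjusted p = 0.866). The paternally expressed Sfmbt2 gene hosts a large rodent cluster, and its 9 members had a median of 0.16, the highest being miR-467e at 0.44 ± 0.20 (adjusted p = 0.279). Of these, miR-467e, miR-467a and miR-467a* were members through day 4 alone, the age at which they stood higher. That median is therefore no support for a direction. The arrays of 1 Sfmbt2 member, miR-467f, did not overlap, at 56.7, 65.1, 59.7, 56.9 and 69.8 at day 1 and 48.2, 53.9, 48.6, 43.3 and 52.5 at day 4 (-0.32 ± 0.15, adjusted p = 0.299).

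**Figure D3:**
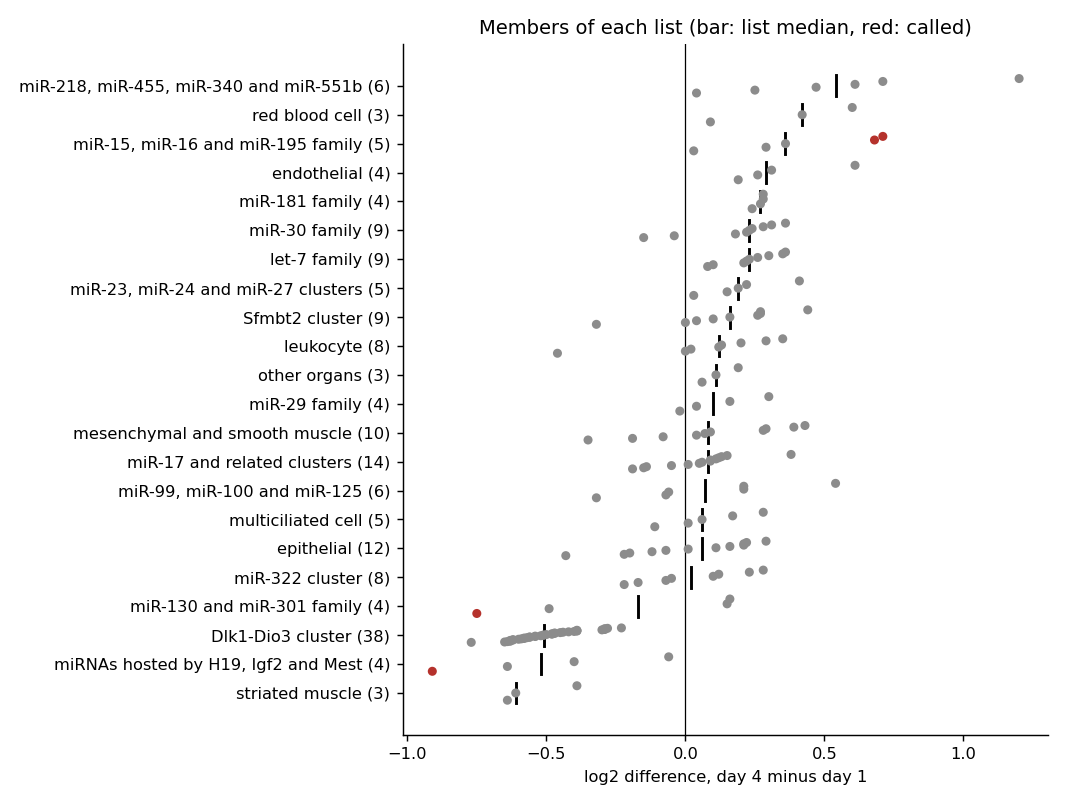
Log2 difference, day 4 minus day 1, of the members of 22 lists with at least 3 members, 1 point per miRNA with the list median as a bar and called members in red; the number of members is in parentheses. The Dlk1-Dio3 and H19, Igf2 and Mest lists lie below 0 with medians of -0.51 and -0.52, and the miR-15, miR-16 and miR-195 family lies above 0 with a median of 0.36.

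Among families tied to growth and differentiation, no member passed besides those named. The 9 members of the let-7 family, which accumulates as cells leave the proliferating state, were all above 0 with a median of 0.23, from let-7e with 0.08 ± 0.17 to let-7b with 0.36 ± 0.22 (adjusted p = 0.824 and 0.420). The values were 0.30 ± 0.12 for let-7g and 0.26 ± 0.11 for let-7f (adjusted p = 0.271 and 0.272). Quantile normalization left 7 of the 9 above 0, and the deposited table gave 8 of 9. The growth-promoting miR-17 and related clusters had 14 members with a median of 0.08, 10 above and 4 below 0, between miR-92a at -0.19 ± 0.25 and miR-106b at 0.38 ± 0.25. The X-linked miR-322 cluster, whose lead miRNA has the AGCAGCA seed too, had 4 of 8 members on each side of 0, from miR-322* at -0.22 ± 0.19 to miR-450a-5p at 0.28 ± 0.30. The miR-29 family represses collagen and elastin messages, and its 4 members had a median of 0.10, from miR-29b* at -0.02 ± 0.23 to miR-29b at 0.30 ± 0.62.

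For the 9 members of the miR-30 family, abundant in the lung, the median was 0.23, from miR-30b* at -0.15 ± 0.11 to miR-30e at 0.36 ± 0.31. The 4 members of the miR-181 family lay between 0.24 ± 0.21 for miR-181b and 0.28 ± 0.18 for miR-181a. The miR-23, miR-24 and miR-27 clusters had a median of 0.19 over 5 members, the lowest being miR-23a at 0.03 ± 0.20. Their member miR-27b, an inhibitor of PPARγ like the miR-130 family, came first by p among the higher members not called: 4410, 4370, 4830, 2610 and 3300 at day 1 against 4340, 5530, 5490, 5130 and 4980 at day 4 (0.41 ± 0.13, adjusted p = 0.159). It passed when arrays were scaled to the median (adjusted p = 0.0385) or to the 75th percentile of all names instead (adjusted p = 0.0357). Of the 6 members of the miR-99, miR-100 and miR-125 group, miR-100, which represses mTOR, had 573, 691, 527, 724 and 637 at day 1 and 1230, 821, 1170, 735 and 713 at day 4 (0.54 ± 0.18, adjusted p = 0.159). The other 5 lay between -0.32, for miR-125a-3p, and 0.21.

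In whole-lung RNA, fewer cells of a type and less RNA per cell cannot be told apart. The labelled tissue was checked by miRNAs known for its cell types. The endothelial miR-126-3p was detected on all 10 arrays, at 48600, 36000, 40400, 31500 and 39800 at day 1 and 47000, 49600, 53100, 39700 and 44800 at day 4 (0.26 ± 0.13, adjusted p = 0.302). Of the epithelial list 12 of 15 names were members, and of the multiciliated cell list 5 of 7. Of the 9 names listed for other organs, 5 were detected on some of the 10 arrays. The brain miRNAs miR-124 and miR-9 and the pancreatic miR-216a and miR-217 were detected on none, the liver miRNA miR-122 on 2 day 1 arrays and the brain miRNA miR-219 on 3 day 1 and 4 day 4 arrays. In contrast miR-128, known from brain, and miR-192 and miR-194, known from gut, liver and kidney, were detected on all 10, and their differences ran from 0.06 ± 0.15 for miR-128 to 0.19 ± 0.13 for miR-194.

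None of the cell type lists held a called member. The 4 endothelial members, miR-126-3p, miR-126-5p, miR-221 and miR-222, had a median of 0.29 and all stood above 0, from miR-221 with 0.19 ± 0.18 to miR-126-5p with 0.61 ± 0.28 (adjusted p = 0.645 and 0.279); normexp correction put 1 of the 4 below 0. The 12 epithelial members had a median of 0.06, from miR-205 at -0.43 ± 0.40 to miR-203 at 0.29 ± 0.15, with miR-200c at -0.20 ± 0.22. The 5 multiciliated cell members also had a median of 0.06, from miR-449a at -0.11 ± 0.33 to miR-34b-5p at 0.28 ± 0.39. In the 10 mesenchymal and smooth muscle members the median was 0.08. The lowest was miR-214 at -0.35 ± 0.33, and miR-143, a smooth muscle miRNA, had 0.39 ± 0.15 (adjusted p = 0.245). The minor arm miR-10a* was highest at 0.43 ± 0.14 (adjusted p = 0.159). Detected on 4 day 1 and 5 day 4 arrays, it was a member only through day 4, where it stood higher. It is therefore no support for a direction. It passed at 0.46 when scaled to the 75th percentile of all names (adjusted p = 0.0248), at 0.71 with quantile normalization (adjusted p = 0.00375), at 0.72 from the deposited table (adjusted p = 0.00645) and at 0.46 with the brightness covariate (adjusted p = 0.0399), and stood at -0.84 after normexp.

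The leukocyte list had 8 members with a median of 0.12. Its neutrophil and monocyte marker miR-223 read 2890, 2190, 2800, 3020 and 3950 at day 1 and 2360, 2080, 2560, 1800 and 1870 at day 4 (-0.46 ± 0.16, adjusted p = 0.159). The ages overlapped, with day 1 replicate 2 among the day 4 values. The pan-leukocyte miR-142-3p differed by 0.35 ± 0.57 and the lymphocyte miR-150 by 0.02 ± 0.31. The erythrocyte miRNA miR-451, read from 23000 to 59300 at day 1 and from 42300 to 66600 at day 4 (0.42 ± 0.23, adjusted p = 0.332). The other erythrocyte members stood at 0.09 ± 0.26 (miR-486) and 0.60 ± 0.95 (miR-144), and the median of the 3 was 0.42, but -0.67 on slide 2.

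Muscle miRNAs set 1 array apart. On day 1 replicate 2 the heart and skeletal muscle miRNA miR-1 read 17000, against 307, 1050, 56.1 and 98.4 on day 1 replicates 1, 3, 4 and 5 and 158 to 619 at day 4. In the same array miR-133a read 7840 and miR-133b 11200, against at most 449 and 651 on the other 9 arrays. The mean log2 level of these 3 members was 13.48 on that array, 6.73 on the lowest day 1 array and 7.79 to 8.69 at day 4. Their differences ran from -0.64 ± 0.81 for miR-133a to -0.39 ± 1.02 for miR-1, and the median of -0.61 turned to 0.48 without that array. The skeletal muscle miRNA miR-206 was detected on none of the 10 arrays, and the heart miRNA miR-208b on 3 day 1 and 4 day 4 arrays. Of the other listed muscle names, miR-499 was detected on 2 day 1 arrays, miR-208a on 1, and neither at day 4. On day 1 replicate 2 miR-208b read 1110, against 14.6 to 67.0 on the other 9 arrays. The part of muscle RNA in the 5 calls was not tested, but without that array miR-195, miR-497 and miR-675-3p stayed called at 0.69, 0.68 and -0.78, whereas miR-210 (-0.47, adjusted p = 0.0947) and miR-301b (-0.66, adjusted p = 0.110) did not.

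The arrays also differed in brightness. The 75th percentile before scaling averaged 1540 ± 532 intensity units over the day 1 arrays and 1960 ± 567 over the day 4 arrays (SD, n = 5 each), a difference of 419 that is within the spread of the arrays (exact permutation test, two-sided p = 0.254). Detected miRNAs numbered 304 ± 27.9 per array at day 1 and 317 ± 20.2 at day 4 (SD, n = 5 each), a difference of 12.2 (exact permutation test, two-sided p = 0.437). The 3 dimmest arrays were day 1 replicates 4 and 5 and day 4 replicate 1. Within an age, log2 values of 2 arrays correlated at 0.882 to 0.988 for day 1 and 0.947 to 0.998 for day 4.

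Brightness went with the level of many members. For 62 of the 278 members the 3 dimmest arrays all lay below the other 7 after scaling, and for 45 they all lay above, although these 3 arrays hold both ages. The share over all tested names was not counted, so this is not shown to be a trait of the members. Outside them, the virus name mghv-miR-M1-2 read 68.8 to 107 on the dimmest arrays and 29.3 to 50.3 on the others. The widest age difference of all members is one of the 62: miR-551b read 790, 858, 1240, 227 and 337 at day 1 and 673, 1790, 1080, 1700 and 1840 at day 4. Its difference of 1.20 ± 0.60, or 2.29-fold, did not pass (adjusted p = 0.320). The same held for miR-218, an inhibitor of Slit and Robo guidance signals, with 555, 891 and 1230 on the dimmest arrays and 1410 to 2640 on the others (0.71 ± 0.29, adjusted p = 0.271), and for miR-15a with 2540 to 4060 against 5700 to 7970. The list of miR-218, miR-455, miR-340 and miR-551b ran from 0.04 ± 0.28 for miR-455 to miR-551b, with a median of 0.54, and 0.18 without the 3 dimmest arrays. Its miR-340-5p and miR-455*, detected on 4 day 1 and 5 day 4 arrays, were members only through day 4, where they stood higher. That median is thus no support for a direction.

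**Figure D4:**
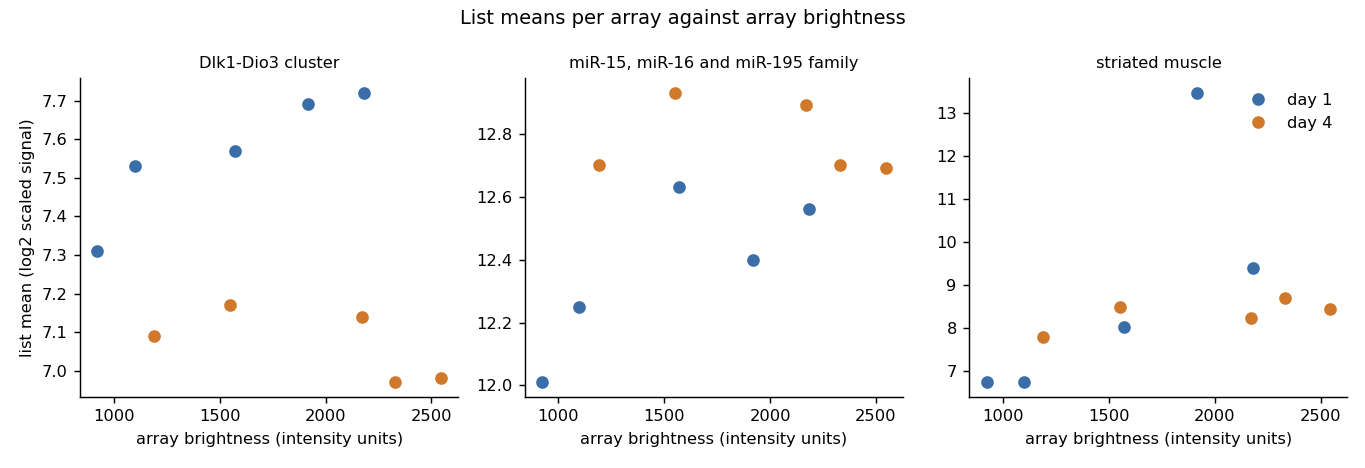
Mean log2 scaled signal of 3 lists on each array against the brightness of the array (75th percentile before scaling, intensity units), day 1 in blue and day 4 in orange. The Dlk1-Dio3 means of day 4 (6.97 to 7.17) all lie below those of day 1 (7.31 to 7.72), the 2 dimmest day 1 arrays are the lowest in the miR-15, miR-16 and miR-195 family, and 1 day 1 array stands at 13.48 for striated muscle.

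With the log brightness of each array as a covariate, the fit over 24 arrays called 28 miRNAs, 22 higher and 6 lower, which hold all 5 of the main calls. Higher at day 4 were thus 22 of 28 calls, beside 2 of 5 without the covariate. The added ones included let-7b with 0.61 ± 0.11 (adjusted p = 0.00228), let-7c with 0.55 ± 0.11 (adjusted p = 0.00393), miR-100 with 0.70 ± 0.14 (adjusted p = 0.00393), miR-10a with 0.48 ± 0.12 (adjusted p = 0.0219), miR-181a with 0.46 ± 0.12 (adjusted p = 0.0219), miR-145 with 0.62 ± 0.16 (adjusted p = 0.0228) and miR-203 with 0.42 ± 0.11 (adjusted p = 0.0305). In the arrays, let-7b read 12500, 9760, 9730, 17300 and 15600 at day 1 and 23100, 15300, 20000, 12100 and 12900 at day 4, highest within each age on the dimmest arrays. Without the 3 dimmest arrays, all 5 main calls held, at 0.55 for miR-195, 0.50 for miR-497, -0.98 for miR-675-3p, -0.67 for miR-210 and -0.85 for miR-301b. With the muscle-rich day 1 array left out as well, which leaves 2 day 1 and 4 day 4 arrays, none of the 5 passed, at 0.43, 0.40, -0.73, -0.56 and -0.75 (limma, adjusted p from 0.0740 to 0.242; 27 names at an unadjusted p under 0.05). Without any scaling none of the 5 passed either (1.07, 1.04, -0.54, -0.17 and -0.39, with the median of all tested names at 0.37).

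The 3 slides each held arrays of both ages, but slide 1 had 1 day 4 array and slide 2 had 1 day 1 array, the muscle-rich replicate 2, so both of these differences rest on a lone array in 1 age. Within slides 1, 2 and 3, the difference was 0.65, 0.76 and 0.70 for miR-195, 0.56, 0.70 and 0.69 for miR-497, -0.67, -1.44 and -0.78 for miR-675-3p, -0.26, -0.88 and -0.52 for miR-210, and -0.95, -0.97 and -0.72 for miR-301b. Each of the 5 had 1 sign on the 3 slides. Since their day 1 and day 4 arrays do not overlap, that sign was fixed in advance and is no further support. With the slide as a block all 5 stayed called. After normexp correction, which moved the median of all tested names to -0.62, miR-195 and miR-497 stayed called (0.76 and 0.73, or 1.38 and 1.35 relative to that median). The falls did not pass there (adjusted p = 0.216 each), and relative to that median they were -0.38 for miR-675-3p, -0.34 for miR-301b and -0.09 for miR-210, beside -0.94, -0.78 and -0.57 relative to the median in the main fit. From the 10 arrays of both ages alone, without the other 14 to estimate the spread, the differences were the same and none passed (limma, 0 called at an adjusted p under 0.05, 42 at an unadjusted p under 0.05); the lowest adjusted p among the 5 was then 0.103, for miR-675-3p.

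**Figure D5:**
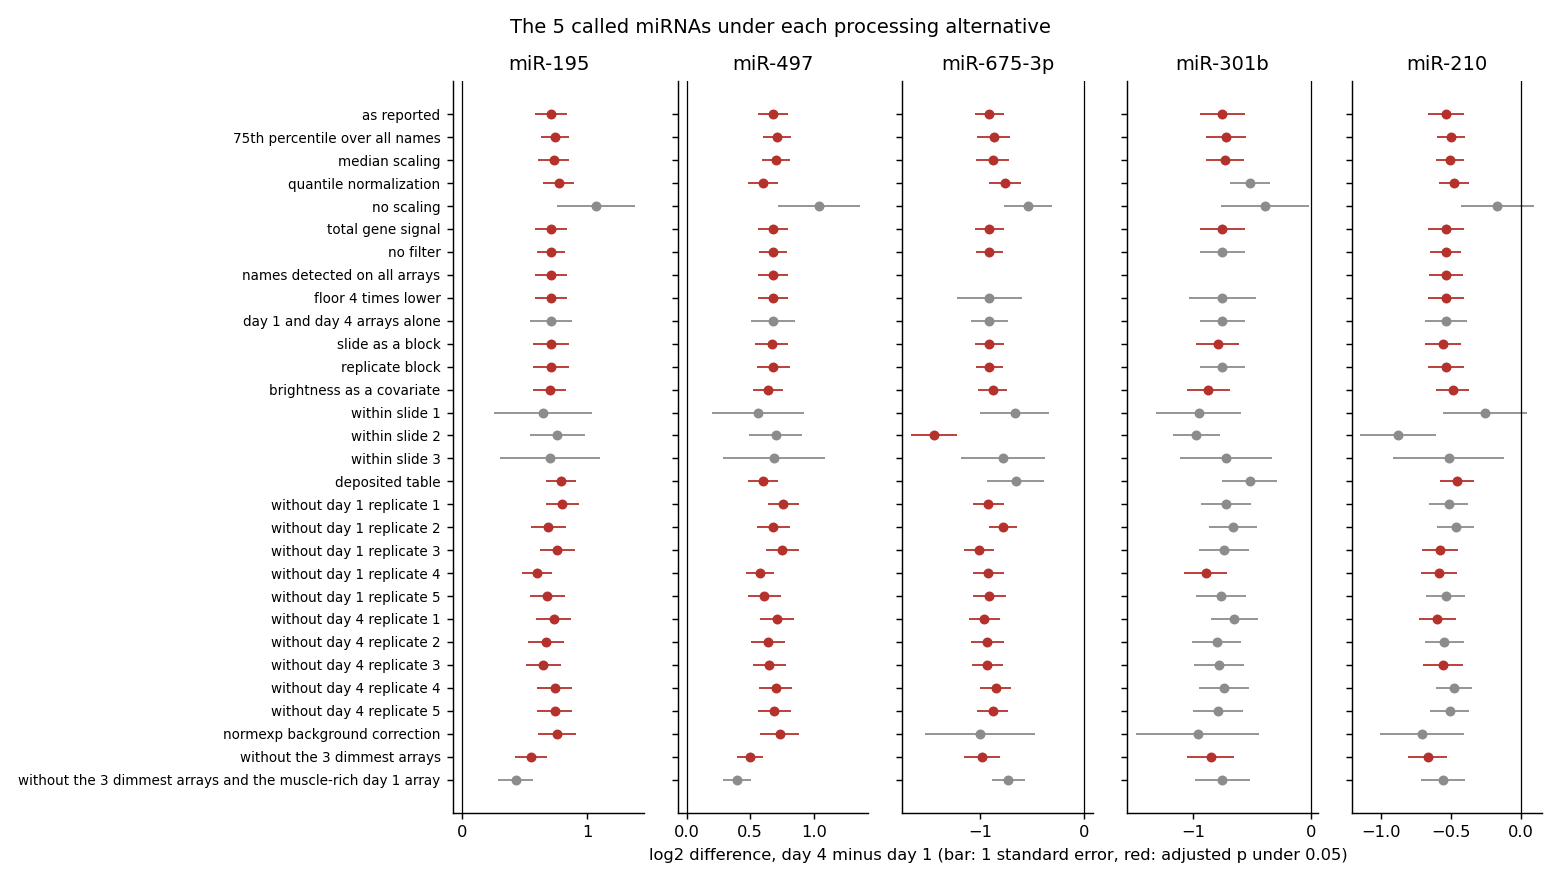
Log2 difference, day 4 minus day 1, of the 5 called miRNAs as reported and under each alternative, 1 row per alternative, with a bar of 1 standard error and red where the adjusted p was under 0.05. All points of a miRNA lie on 1 side of 0, and miR-301b is red in the fewest rows; rows without a point are those in which the miRNA did not enter the fit.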

How the data were processed

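Per the labels, total RNA of whole lungs (miRNeasy kit) was labelled with Cy3 for 1-colour Agilent arrays, which the authors read with Agilent Feature Extraction 10.7.1.1, per the file headers. The deposited array files hold background-subtracted intensity values per spot, with no adjustment between arrays. The authors' deposited table of the whole series holds log2 values whose making is not given in the sources used here; it was an alternative. Spots of a probe were averaged without the 322 to 523 outlier spots per array, probes of a miRNA were summed, and arrays were scaled to a common 75th percentile, taken over the 228 names detected on all 24 of them. Values under a floor of 7.24 were set to it (2.86 as log2).

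The test was that of limma 3.58.1 (R 4.3.3), 1 model over 24 arrays with 5 ages as groups (19 residual degrees of freedom), Benjamini-Hochberg adjusted over the 322 names that all arrays of some age detected; the fit was tested on simulated data. Single values per array were compared by exact permutation. Named in the text are the called members, up to 12 per direction filled by unadjusted p, the extremes and some further members of each list, and members whose ages do not overlap; miR-551b, let-7 and the members called with the brightness covariate were also picked after their values were seen. The members and lists were chosen with earlier results of these data known. The precision is limited by the number of arrays. Where no source says that replicates are separate animals, p-values measure only the spread between these samples. Sequences came from RefSeq tables (GRCm38.p6).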

Additional observations from a re-analysis of the deposited data

Results flagged for a closer look

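In 98 groups of 5 arrays looked at for 1 array far from its fellows, 3 were found; chance alone gives about 1 in 20. Day 4 replicate 1 detected 282 miRNAs, while the other day 4 arrays detected 318 to 331. The mean log2 level of the miR-30 family was 10.18 on day 1 replicate 4 and 10.42 to 10.46 on the other day 1 arrays. The mean log2 level of the 3 tested names of mouse viruses, which have no known source in a healthy lung, was 7.40 on day 1 replicate 5 and 6.81 to 6.96 on the other day 1 arrays. These 3 arrays are the dimmest of the 10; the part of brightness was not tested.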

How the results depend on the processing

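Against 5 calls as reported, the number was 8 with quantile normalization, 3 without scaling (let-7b, let-7c and miR-100), 3 over the names detected on all arrays, 3 with a floor 4 times lower, 0 from the 10 arrays alone, 28 with brightness as a covariate, 0 within slide 1, 0 within slide 3, 2 after normexp and 0 without the 3 dimmest arrays and the muscle-rich day 1 array, where 27 had an unadjusted p under 0.05. Leaving out 1 array gave 3 to 9 calls, 9 without day 4 replicate 1. It gave a difference of 2.6 to 20.9 in detected miRNAs. The 3 miRNAs miR-10a*, miR-31 and miR-326, not called, turned to -0.84, -0.26 and -0.25 after normexp, which moved the median of all tested names to -0.62. Higher at day 4 were 2 of 5 calls as reported, 4 of 7 when scaled to the 75th percentile of all names, 3 of 6 when scaled to the median, 5 of 8 with quantile normalization, 3 of 3 without scaling, 5 of 6 from the deposited table and 2 of 2 after normexp. Same-numbered arrays of both ages deviated together in only 1 of 5 pairs (correlation over 0.1). Brightness went with the level of many members too, so these correlations cannot tell whether the numbers pair the arrays. With a replicate block 4 were called, all but miR-301b. All 5 called miRNAs kept their sign in every alternative in which they were tested, but relative to the median of all tested names the 3 falls after normexp were -0.38, -0.34 and -0.09 for miR-675-3p, miR-301b and miR-210. Leaving out arrays could not turn a sign, since the ages of these 5 did not overlap. A lower floor left the differences of miR-675-3p and miR-301b at -0.91 and -0.75 and raised their errors, since later ages stand at the floor. The normexp correction on the median spot signal and the fits without the dim and muscle-rich arrays were chosen after seeing the data; the planned normexp on the mean signal was not run. The causes of these shifts were not tested.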
